A study of Mus musculus with 9 samples.

Results

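H3K27ac regions that all 3 pancreatic cancer cell lines of this series shared, and that no H3K4me3 region of any line touched, numbered 2403. They were chosen by region calls: the H3K27ac lists of the 3 lines were merged wherever they overlapped by at least 1 bp on chromosomes 1 to 19, and a merged region was kept when all 3 H3K27ac lists overlapped it and no row of the 3 H3K4me3 lists did. Merging gave 26106 regions. Of these, 11623 were in all 3 H3K27ac lists, and the 2403 without H3K4me3 made up 20.7% of the shared and 9.20% of all merged regions. They are called shared distal regions here, where distal means only that no H3K4me3 region was called on them. Presence in the H3K27ac lists and absence from the H3K4me3 lists are therefore the rule and not findings.

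H3K27ac, acetylation of lysine 27 of histone H3, lies on active promoters and enhancers. H3K4me3, trimethylation of lysine 4, marks promoters, so H3K27ac without H3K4me3 is commonly used to list candidate enhancers. H3K27me3 is placed on the same lysine by Polycomb complexes at silenced genes, and 1 histone tail cannot carry acetyl and methyl groups on that residue together. Kdm6a, an X-linked gene, encodes an enzyme that removes methyl groups from H3K27 and also works in complexes that methylate H3K4 at enhancers.

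Kdm6a was deleted in a female line (female KO) and in a male line (male KO), and the male WT line, written WT, kept it. All came from mouse pancreatic cancer of the strain mixed C57BL/6-SV129, were grown in F12/DMEM with EGF and received no treatment. The sources used here do not state whether a line is 1 clone or how the gene was deleted. The female line differs from WT in sex as well as genotype, and the series holds no female line with Kdm6a. Each mark had 1 library per line, so no p-value was computed, every difference compares libraries and not genotypes, and the spread between replicates is unknown. Reads inside called regions ranged from 2396174 to 18507923 over the 9 libraries, and for H3K27ac they were 12295125 in female KO and 11023981 in male KO, against 3989395 in WT. Each region's count was read as its number of reads, although the lists have no header, and total reads per library are unknown. Pancreatic marker genes and the Kdm6a deletion were not checked, because no gene was placed on mm9 here.

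The shared distal regions were longest in the female KO line and shortest in WT. Their H3K27ac cover had a median of 8.8 kb in female KO (5.6 to 13.5 kb between the quartiles), 6.2 kb in male KO (4.2 to 9.6 kb) and 5 kb in WT (3.4 to 7.8 kb). Within a region, the female KO cover was a median 1.61 times the WT cover, and it was the longer of the pair at 1985 regions, equal at 65 and shorter at 353. The male KO cover was a median 1.17 times that of WT, longer at 1541 regions and shorter at 770. The female KO list was the longest of the 3 at 69.1% of the regions. Shared regions with H3K4me3 had the same order, with medians of 9.4, 6.2 and 4.8 kb in female KO, male KO and WT. The H3K27ac lists as a whole also ran in this order, covering 201 Mb in female KO, 147 Mb in male KO and 110 Mb in WT, so the order was not particular to the distal regions. The part of the order that comes from sequencing depth was not tested.

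The 3 lists often met over only part of the merged width. The merged width had a median of 9.6 kb and ranged from 1.2 to 99.6 kb, for 29.0 Mb in all. The stretch that all 3 lists covered had a median of 4 kb, or 45.3% of the merged width, and 12.4 Mb in all. At 16 regions the 3 lists had no stretch in common. The female KO list covered at least 50% of the merged width at 96.6% of the regions, the male KO list at 77.4% and the WT list at 59.8%. The WT list split 336 of the regions into more than 1 call and the male KO list 282, against 59 in the female KO list. Requiring each list to cover at least 50% of the merged width left 1194 regions, and H3K27ac regions at or above the median count of their list left 727. Without the female KO lists in the rule 4635 regions qualified, and without the WT lists 4250.

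**Figure D1:**
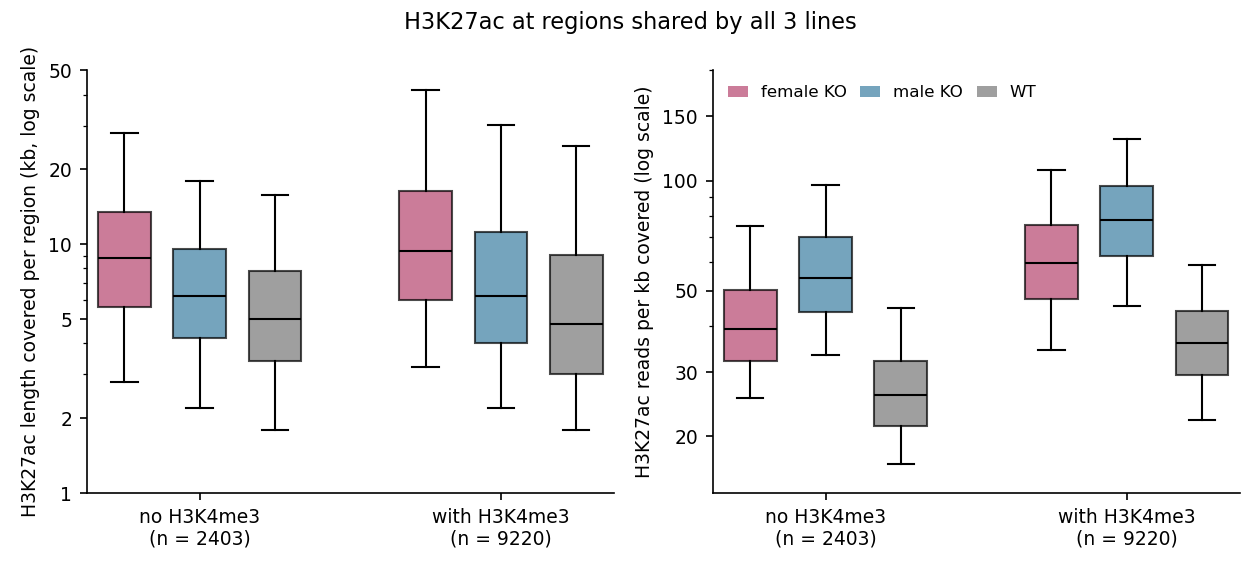
Length of H3K27ac cover (left, kb) and H3K27ac reads per kb of covered length (right), both on log axes, for the 2403 shared regions without H3K4me3 and the 9220 with it. Boxes show quartiles with the median, whiskers the range from 5 to 95% of regions, with 1 library per line. Female KO covers were the longest in both classes, and reads per kb were lower in each line where H3K4me3 was absent.

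The longest shared distal region spanned 99.6 kb on chromosome 9 (chr9:71490601-71590200 in mm9, as all positions here) and lay 22.8 kb from the nearest H3K4me3. H3K27ac covered 93.6 kb of it in female KO with 7093 reads, 76.4 kb in male KO with 8043 reads and 38.2 kb in WT with 1770 reads. The next longest, chr6:115367801-115447400, was covered over 79.6 kb in female KO with 7942 reads, 4.2 kb in male KO with 278 reads and 29.8 kb in WT with 937 reads. At that region the 2 KO lines differed from each other more than either differed from WT in covered length. The third, chr16:97873201-97943200, was covered over 70 kb in female KO, 38 kb in male KO and 38.6 kb in WT. At chr7:73710801-73778800 the covers were 68 kb in female KO, 44 kb in male KO and 37.2 kb in WT. At chr17:32025401-32087600 they were 62.2 kb in female KO, 52.4 kb in male KO and 44.4 kb in WT, the closest of these 5. This region was also the only one of the 5 that carried H3K27me3, over 19 kb in the female KO line, and H3K4me3 of WT lay 2 kb away.

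H3K27ac was less dense at the shared distal regions than at shared regions with H3K4me3 in each of the 3 lines. Density is given as reads per kb of the length that the line's own list covers. The median was 39.3 reads per kb in female KO, with 54.1 in male KO and 26 in WT at the distal regions, against 59.6, 77.9 and 36.0 in the same lines at the 9220 regions with H3K4me3. On the log2 scale, distal minus H3K4me3-bearing medians came to -0.60 in female KO and -0.52 in male KO, against -0.47 in WT. The order of the classes was the same in each width class from 2 kb up, and below it there were only 5 distal regions. At 5 to 10 kb, 978 distal regions had medians of 36.4, 52.3 and 24.7 reads per kb in female KO, male KO and WT, against 57.9, 78.0 and 35.3 at 3398 regions with H3K4me3. Distal regions in only 1 or 2 lists were sparser still where they were called, with 31.6, 37.9 and 21.0 reads per kb in female KO, male KO and WT. Calls in the same H3K27ac lists set both distal classes, so this last difference is not independent of how they were chosen. Reads per kb are not compared between lines as they stand, since library depth enters them.

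The densest shared distal region in WT was chr12:102995401-103010000, with 1227 reads over 14.6 kb, or 84.0 reads per kb. It had 62.9 reads per kb in female KO and 115 in male KO. At the second, chr8:46656001-46675200, the densities were 108 reads per kb in female KO and 171 in male KO, against 81.5 in WT. The third, chr7:150300801-150313400, had 51.8 in female KO and 79.8 in male KO, against 75.9 in WT, and H3K27me3 covered 12.6 kb of it in female KO and 8.2 kb in male KO, with none in WT. It lay 3.4 kb from H3K4me3.

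To compare lines, each log2 ratio of reads per kb was centred by subtracting its median over all 11623 shared regions. Those medians were 0.73 for female KO over WT, 1.11 for male KO over WT and -0.38 for female KO over male KO. The 3 ratios share libraries, so they are set side by side and not combined. Most shared distal regions differed by less than 2-fold in this centred density. The rule kept only regions called in all 3 lists, and density was taken over called length alone. A region without a call in 1 of the lines could therefore not enter these ratios. The centred log2 ratio had a median of -0.10 for female KO over WT (95% interval over regions -0.13 to -0.08), -0.04 for male KO over WT (-0.06 to -0.02) and -0.06 for female KO over male KO (-0.08 to -0.04). With H3K4me3 the medians were 0.03, 0.01 and 0.01. The quartiles lay 0.64, 0.60 and 0.63 apart at distal regions, against 0.57, 0.48 and 0.51 with H3K4me3. The difference between the 2 KO lines was thus about as wide as that between either KO line and WT.

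In female KO over WT, 46 of the 2403 shared distal regions were at least 2-fold higher, or 1.91%, against 1.49% of all shared regions, and 79 were at least 2-fold lower, or 3.29%, against 2.25%. In male KO over WT, 21 were higher, or 0.874%, against 0.671%, and 54 were lower, or 2.25%, against 1.3%. In female KO over male KO, 26 were higher, or 1.08%, against 1.02%, and 62 were lower, or 2.58%, against 1.43%. The 95% Wilson intervals of the 3 higher shares (1.44 to 2.54%, 0.572 to 1.33% and 0.739 to 1.58%) held their background. Those of the lower shares (2.65 to 4.08%, 1.73 to 2.92% and 2.02 to 3.29%) lay above theirs, counting regions only.

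These counts, and how the higher shares stood to their background, depended on how density was taken. Per kb of the whole merged region, which adds the difference in covered length, both directions lay above it. In female KO over WT, 289 distal regions were then higher, or 12.03%, against 9.74% of all shared regions, and 553 were lower, or 23.0%, against 12.4%. In male KO over WT, 276 were higher, or 11.5%, against 6.30%, and 422 lower, or 17.6%, against 9.01%. In female KO over male KO, 309 were higher, or 12.9%, against 8.83%, and 422 lower, or 17.6%, against 8.57%. Scaled by all reads in regions in place of the median, nearly all distal regions past 2-fold were lower. The counts were 0 higher and 1200 lower in female KO over WT, where 0.0172 and 40.5% of all shared regions passed, against 49.9% lower at distal regions. In male KO over WT, 4 were higher, or 0.1665%, against 0.0602%, and 200 lower, or 8.32%, against 6.03%. In female KO over male KO, 2 were higher, or 0.0832%, against 0.0602%, and 469 lower, or 19.5%, against 13.0%.

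With lines left out of the rule, the counts grew with the set. Without the female KO lists, 43 of 4635 distal regions were higher in male KO over WT, or 0.928%, against 0.823% of all regions shared under that rule, and 131 were lower, or 2.83%, against 1.84%. Without the male KO lists, 52 of 3035 were higher in female KO over WT, or 1.713%, against 1.47%. Another 88 were lower, or 2.9%, against 2.242%. Without the WT lists, 54 of 4250 were higher in female KO over male KO, or 1.27%, against 1.08%, and 99 were lower, or 2.33%, against 1.39%.

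**Figure D2:**
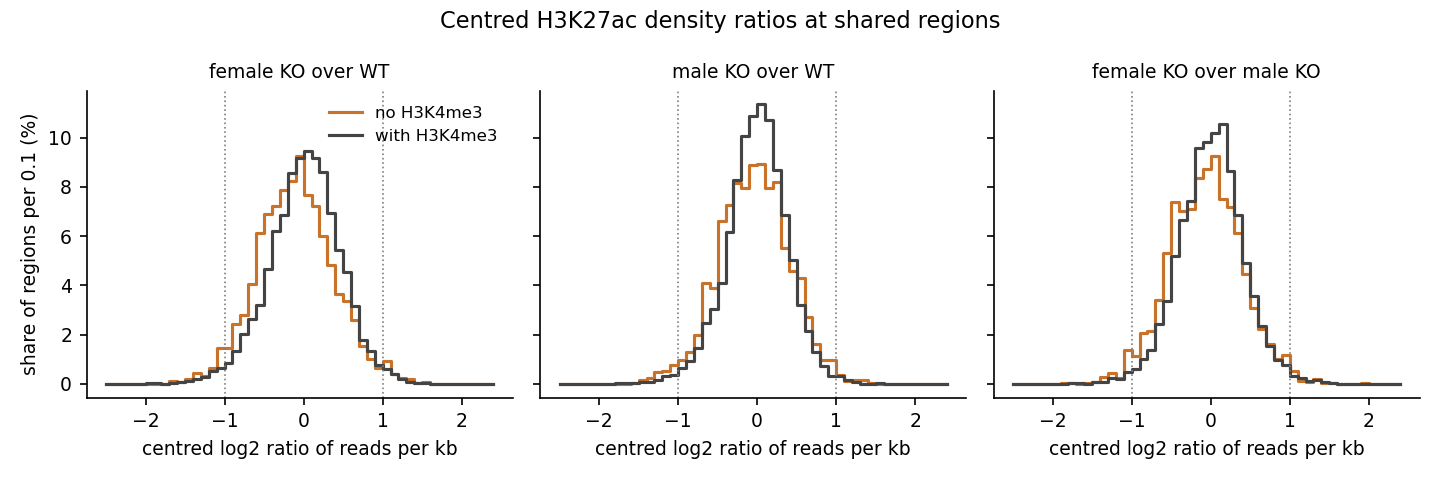
Share of regions (%) per 0.1 of the centred log2 ratio of H3K27ac reads per kb, for shared regions without H3K4me3 (orange, 2403) and with it (dark, 9220), with 1 library per line. Dotted lines mark 2-fold. The distal median lies to the left of the other, and the distal curve is wider, in each of the 3 comparisons. In male KO over WT the distal upper quartile lies to the right, at 0.26 against 0.24.

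Among regions with at least 300 reads over the 3 lists, chr13:30273601-30279000 had the highest centred ratio of female KO over WT and of female KO over male KO, 1.58 and 1.94. Its densities were 88.1 reads per kb in female KO and 29.7 in male KO, against 17.8 in WT. At chr4:59323201-59338400 they were 162 reads per kb in female KO and 96.6 in male KO, against 32.8 in WT, a centred log2 ratio of 1.58 for female KO and 0.44 for male KO over WT. The female KO line alone had H3K4me3 close by, at 5.4 kb, against 70 kb in male KO and 62 kb in WT. At chr16:11503201-11517000, the next highest in female KO over male KO with 1.55, the densities were 73.8, 32.6 and 19.1 reads per kb in female KO, male KO and WT. These 3 regions were picked for their high ratios of female KO, so the female KO line standing apart there follows from the choice.

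The lowest ratios of female KO over WT were -1.68 at chr1:184184001-184187400 and -1.61 at chr5:77355601-77359600. At the first, the densities were 36.7 reads per kb in female KO and 96.7 in male KO, against 71.2 in WT, and H3K27me3 covered 2.2 kb in female KO alone. At the second they were 26.3 in female KO and 40.5 in male KO, against 48.7 in WT, with H3K27me3 in no line. The lowest ratios of male KO over WT were -1.56 at chr8:96861601-96871400 and -1.47 at chr1:186249401-186256000. The region on chromosome 8 had 35.7 reads per kb in female KO and 41.0 in male KO, against 55.9 in WT, and H3K27me3 covered 9.8 kb in female KO, 5 kb in male KO and none in WT. The region on chromosome 1 held 45 reads over 1.4 kb in male KO, against 140 reads over 3.4 kb in WT, and no H3K27me3 in any line.

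The highest ratios of male KO over WT were 1.41 at chr17:88246001-88254200, with 73.8 reads per kb in female KO and 113 in male KO, against 19.7 in WT, and 1.39 at chr2:69926601-69935000, with 50.7, 103 and 18.2. The second carried H3K27me3 in all 3 lines, over 5.2 kb in female KO, 2.8 kb in male KO and 4 kb in WT. The lowest ratio of female KO over male KO, -1.87, was at chr2:69871401-69877800, on the same chromosome and near that region. It had 23.4 reads per kb in female KO and 111 in male KO, against 21.4 in WT. At chr9:31122601-31137000 the ratio was -1.76, with 20.2 reads per kb in female KO and 88.5 in male KO, against 17.3 in WT. At these last 2 regions male KO was high, with centred ratios over WT of 1.27 and 1.24, while those of female KO over WT were -0.60 and -0.51.

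Shared distal regions lay at a median of 30.2 kb from the nearest H3K4me3 of any line (95% interval over regions 28.4 to 32.6 kb). The quartiles were 12.2 and 74.8 kb, and the range ran from 0.2 to 1711 kb. Distal regions in only 1 or 2 H3K27ac lists had a median of 34.2 kb (33 to 35.4 kb). To H3K4me3 of the line itself, the medians were 40.2 kb in female KO, 38.2 kb in male KO and 35.8 kb in WT. Within 5 kb lay 200 regions (8.32%), from 5 to 20 kb 709, from 20 to 50 kb 633, from 50 to 100 kb 394, and at 100 kb or more 467 (19.4%). Merged regions had a median width of 11.2 kb within 5 kb, 9.6 to 10.2 kb in the middle classes and 8 kb at 100 kb or more. The 5 distance classes had medians of 39.0 to 40.0 reads per kb in female KO, 52.6 to 56.7 in male KO and 24.3 to 26.9 in WT. In WT the lowest median was that at 100 kb or more (24.3, 95% interval 23.5 to 25.6), below the 26.9 (25.9 to 27.6) at 20 to 50 kb. Of the regions, 45 lay within 1 kb of H3K4me3.

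At the edge of the rule, chr1:36484201-36497200 was 1 of 4 members only 0.2 kb from H3K4me3, and had 37.8 reads per kb in female KO and 63.8 in male KO, against 23.5 in WT. Just outside it, chr2:118309001-118319200 was overlapped over 0.2 kb by an H3K4me3 region of female KO alone, and had 44.6, 41.4 and 29.8 reads per kb in the same lines. H3K4me3 of a single line removed 76 shared regions through female KO, 80 through male KO and 448 through WT. At the 448 with H3K4me3 in WT alone the medians were 43.3, 57.5 and 34.4 reads per kb, and the H3K4me3 cover had a median of 2 kb, against 7 kb at the 8186 shared regions with H3K4me3 in all 3 lines. The farthest region, chr9:11511801-11516000, had 31.8 reads per kb in female KO and 91.1 in male KO, against 33.1 in WT. The next 2, chr13:27020201-27026200 and chr13:27028601-27037800, were neighbours at 1482 and 1470 kb from H3K4me3. The first had 31.1 reads per kb in female KO and 60.6 in male KO, against 18.0 in WT, and the second 76.3, 63.6 and 24.2.

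The shared distal regions are part of all merged H3K27ac regions, so the nearest of any kind can lie no farther than the nearest shared distal one. The nearest H3K27ac region of any kind was a median 6.4 kb away, and under 10 kb at 60.9% of the regions. The nearest other shared distal region was a median 100 kb away, and under 10 kb at 373 regions, or 15.5%. Joined under 10 kb, the set gave 2030 single regions, 167 pairs and 12 groups of 3 or more. The largest group held 5 regions over 98.6 kb (chr1:71897801-71996400), followed by 4 regions over 44.6 kb (chr9:18502001-18546600). By chromosome, the distal share of shared H3K27ac regions was highest on chromosome 13, with 167 of 558 regions (29.9%, 95% Wilson interval 26.3 to 33.9%), and chromosome 1, with 239 of 881 (27.1%, 24.3 to 30.2%). It was lowest on chromosome 17, with 74 of 528 (14%, 11.3 to 17.2%), and chromosome 4, with 92 of 598 (15.4%, 12.7 to 18.5%). The intervals count regions only.

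H3K27me3, which the rule did not use, was found at more of the shared distal regions in the KO lines than in WT. It overlapped 402 regions in female KO (16.7%, 95% Wilson interval 15.3 to 18.3%), 141 in male KO (5.87%, 4.997 to 6.88%) and 38 in WT (1.58%, 1.15 to 2.16%). The 3 intervals did not overlap, but they count regions only and do not measure the spread between libraries, of which each line had 1. The H3K27me3 lists covered 345, 238 and 145 Mb in female KO, male KO and WT, with 18507923, 4811961 and 2396174 reads in regions, and a longer list meets more regions. When the KO lists were limited to their regions with the most reads, up to the covered length of the WT list, the shares were 6.45% in female KO and 3.496% in male KO, against 1.58% in WT, in the same order. The WT list stayed whole, so lists of equal length still differed in which kind of region they held. With at least 50% of the width covered they were 9.24, 1.66 and 0.0832%. No line carried H3K27me3 at 1991 of the regions, or 82.9%. It was present in female KO alone at 265 regions, in both KO lines and not WT at 100, in all 3 lines at 32, in male KO alone at 9, in female KO and WT at 5 and in WT alone at 1.

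Shared regions with H3K4me3 overlapped H3K27me3 more often, at 24.8% in female KO and 8.89% in male KO, against 3.74% in WT, and distal regions in 1 or 2 lists at 19.3, 7.59 and 3.21%. This last class was counted whole in each line. Of its 10623 regions, female KO itself called H3K27ac at 3941, male KO at 6191 and WT at 3803. In each line the share with any overlap was lowest at the shared distal regions among these 3 classes. The order against regions with H3K4me3 was the same in each width class from 2 kb up. At 5 to 10 kb the distal shares were 13.2, 3.89 and 1.02% in female KO, male KO and WT, against 21.3, 6.95 and 3.44% with H3K4me3. Where H3K27me3 met a distal region it covered more of it in the KO lines. In female KO it covered at least 50% of the width at 55.2% of the overlapping distal regions, against 32.3% with H3K4me3, and in male KO at 28.4% against 18.8%. In WT the order was the other way, with 2 of 38 distal regions, or 5.26%, against 10.7%. By length, H3K27me3 covered 10.4% of the merged distal regions and 9.27% of those with H3K4me3 in female KO, 2.43 and 2.44% in male KO, and 0.338 and 0.683% in WT. In the KO lines these 2 shared classes differed in the number of regions met but little in the length covered. Distal regions in 1 or 2 lists, counted whole, had 15.7, 5.17 and 1.69% of their length covered in female KO, male KO and WT.

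**Figure D3:**
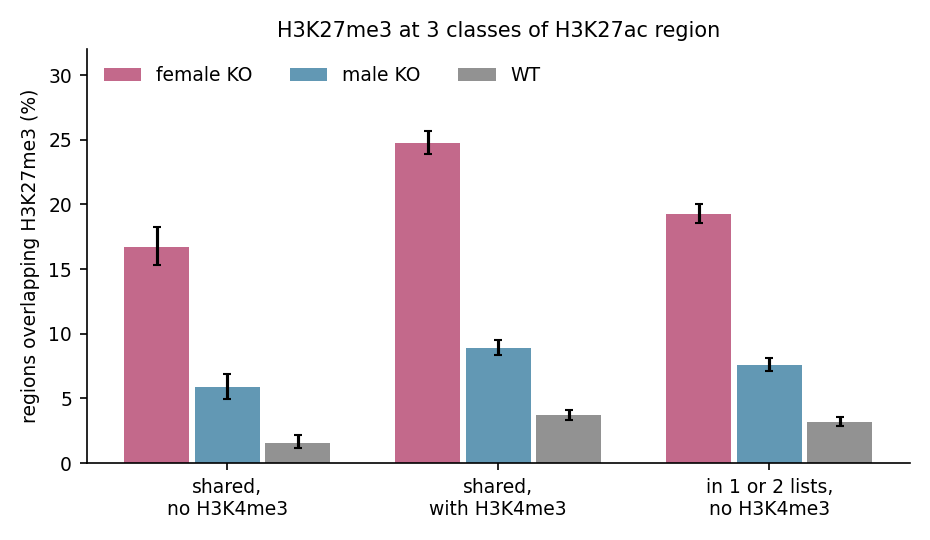
Share of H3K27ac regions that overlapped H3K27me3 of each line (%), with 95% Wilson intervals and 1 library per line. Classes are shared regions without H3K4me3 (2403), shared regions with it (9220) and regions without H3K4me3 in 1 or 2 H3K27ac lists (10623). The last class was counted whole, whether or not the line itself called H3K27ac there. The bars run from 16.7 to 1.58% at the shared distal regions, the lowest class in each line.

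In the female KO line most H3K27me3 within the shared distal regions lay on bins that the same line's H3K27ac list also covered. The share was 86.8% of 3016 kb, at 379 regions. In male KO it was 36.1% of 705 kb, at 97 regions, and in WT 16.2% of 97.8 kb, at 13 regions, or 0.541% of all. The own H3K27ac lists covered 26.8, 18.5 and 15.4 Mb of the 29.0 Mb of merged width in female KO, male KO and WT. A longer list meets more of any length. Of the line's own H3K27ac length, 9.79% in female KO and 1.38% in male KO, against 0.103% in WT, was also called H3K27me3. The rest of the merged width, covered by H3K27ac of another line only, was called H3K27me3 over 17.9, 4.30 and 0.604% of its length in female KO, male KO and WT. In each line H3K27me3 was thus more frequent outside the line's own H3K27ac than on it. Overlap of called regions in a cell population does not show both marks on the same nucleosome. The H3K27me3 regions that touched shared distal regions were longer and denser than the H3K27me3 regions of the same line as a whole, with a median of 22.6 kb and 46.1 reads per kb in female KO, against 9 kb and 34.7 for all. In male KO these were 9.9 kb and 18.9 reads per kb, against 5.2 kb and 16.6, and in WT 7.2 kb and 17.4, against 3.8 kb and 14.8. The same held for those that touched shared regions with H3K4me3, with 16.4 kb and 48.5 reads per kb in female KO, 9.6 kb and 20.8 in male KO, and 6.6 kb and 17.9 in WT. A longer H3K27me3 region meets any set of regions more often, so the greater length is partly given by picking regions that touch.

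The share with H3K27me3 was lowest far from H3K4me3 in both KO lines. In female KO it was 19.0% within 5 kb, 20.7% at 5 to 20 kb, 20.5% at 20 to 50 kb, 15.0% at 50 to 100 kb and 6.00% at 100 kb or more. In male KO the values were 6.00, 7.76, 6.95, 4.57 and 2.57%, and the intervals of the last pair (2.91 to 7.11% and 1.48 to 4.44%) overlapped. In WT they were 1, 1.97, 1.42, 1.27 and 1.71%, with 2 to 14 regions in each class, so no order could be read. The nearest class and the middle ones had overlapping intervals in each line. The share also differed by chromosome in the KO lines. In female KO it was highest on chromosome 6 (32% of 75 regions) and chromosome 19 (30% of 60), and lowest on chromosome 3 (4.23% of 142) and chromosome 10 (4.67% of 150). In male KO the same 4 chromosomes had 12, 16.7, 1.41 and 1.33%.

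**Figure D4:**
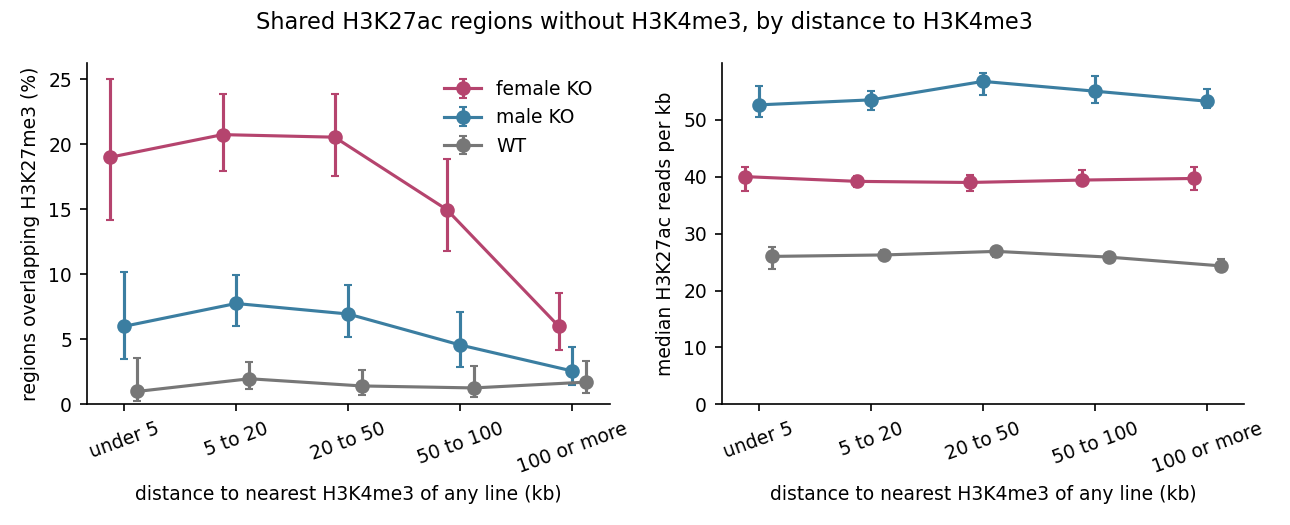
Shared H3K27ac regions without H3K4me3 by distance to the nearest H3K4me3 of any line: share overlapping H3K27me3 (left, %, with 95% Wilson intervals) and median H3K27ac reads per kb (right, with 95% intervals of the median over regions), with 1 library per line. The female KO share lies at 19.0 to 20.7% up to 50 kb and at 6.00% from 100 kb on, while the medians of density span 39.0 to 40.0 in female KO, 52.6 to 56.7 in male KO and 24.3 to 26.9 in WT.

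The longest H3K27me3 covers at shared distal regions of the female KO line were 45.4 kb at chr10:127003401-127048800 and 36.8 kb at chr6:51603201-51654600, with none in male KO or WT at either. At the first, H3K27ac had 39.2 reads per kb in female KO and 51.6 in male KO, against 36.7 in WT, and the female KO H3K27ac cover was the shortest of the 3, at 29.6 kb against 41.6 kb in male KO and 38.6 kb in WT. At the second, H3K27ac covered 51.4 kb in female KO, 5.6 kb in male KO and 19.2 kb in WT. In male KO the longest were 25.4 kb at chr9:61158801-61188400 and 21.6 kb at chr15:74434801-74459800, where female KO had 26 and 21.6 kb, and WT none and 2.8 kb. The region on chromosome 9 had 52.3 H3K27ac reads per kb in female KO and 60.2 in male KO, against 31.7 in WT, and that on chromosome 15 had 50.2, 62.5 and 36.5. In WT the longest were 15.6 kb at chr7:149654401-149675000 and 11.8 kb at chr6:72208201-72257600. There the KO lines had H3K27me3 too, over 19.6 kb in female KO and 16.8 kb in male KO at the first, and 31.6 and 13.2 kb at the second. H3K27ac at the region on chromosome 7 covered 20.4 kb in female KO and 18.6 kb in male KO, against 2.6 kb in WT.

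H3K27ac density was lower, relative to WT, at shared distal regions with H3K27me3 in a KO line and not in WT. At the 365 such regions of female KO the centred log2 ratio of female KO over WT had a median of -0.25 (95% interval over regions -0.33 to -0.17), and 254 lay below 0. At the 2000 regions with H3K27me3 in neither line it was -0.09 (-0.11 to -0.07), a difference of -0.16. Median reads per kb were 37.7 against 39.6 in female KO and 27.5 against 25.8 in WT. The lower ratio thus held a higher WT density as well as a lower female KO density. At the 109 such regions of male KO, the ratio of male KO over WT had a median of -0.25 (-0.36 to -0.11), and 77 lay below 0. It was -0.03 (-0.05 to -0.01) at the 2256 regions in neither, a difference of -0.21. Median reads per kb there were 48.5 against 54.5 in male KO and 27.6 against 26 in WT. Density over WT was also lower in the other KO line at these regions. At the 365 regions of female KO, male KO over WT had a median of -0.20 (-0.26 to -0.11), against -0.01 at the 2000 regions, and female KO over male KO had -0.06 (-0.11 to 0.01), the same as the -0.06 at regions without. At the 109 regions of male KO, female KO over WT had a median of -0.27 (-0.40 to -0.11), against -0.10 at the 2256 regions. The ratios share the WT library, and these regions were also chosen by their absence from the WT H3K27me3 list, so these medians are not independent of each other.

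The share of the merged width that H3K27me3 covered went with the size of this difference in the female KO line. At 191 regions where H3K27me3 covered at least 50% of the merged width, the median of female KO over WT was -0.40 (-0.46 to -0.35). At 174 regions with less cover it was -0.04 (-0.16 to 0.01). The 191 were the narrower, with a median width of 10.8 kb against 12.3 kb. In male KO the 26 and 83 regions of these classes had medians of -0.27 (-0.59 to 0.00) and -0.23 (-0.37 to -0.11), with overlapping intervals. Regions with H3K27me3 in female KO and not WT were wider than those in neither, with a median of 11.4 kb against 9.3 kb, and closer to H3K4me3, at 21.8 kb against 32.8 kb. Over all shared distal regions, the median of female KO over WT also varied with the reads in WT. It was -0.03 at 50 to 100 WT reads, -0.26 at 200 to 400 and -0.13 at 400 or more. The part of width, distance and WT reads in the difference was not tested. At shared regions with H3K4me3, the same comparison gave medians of -0.04 with H3K27me3 in female KO and 0.04 without, and of -0.05 with H3K27me3 in male KO and 0.01 without.

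**Figure D5:**
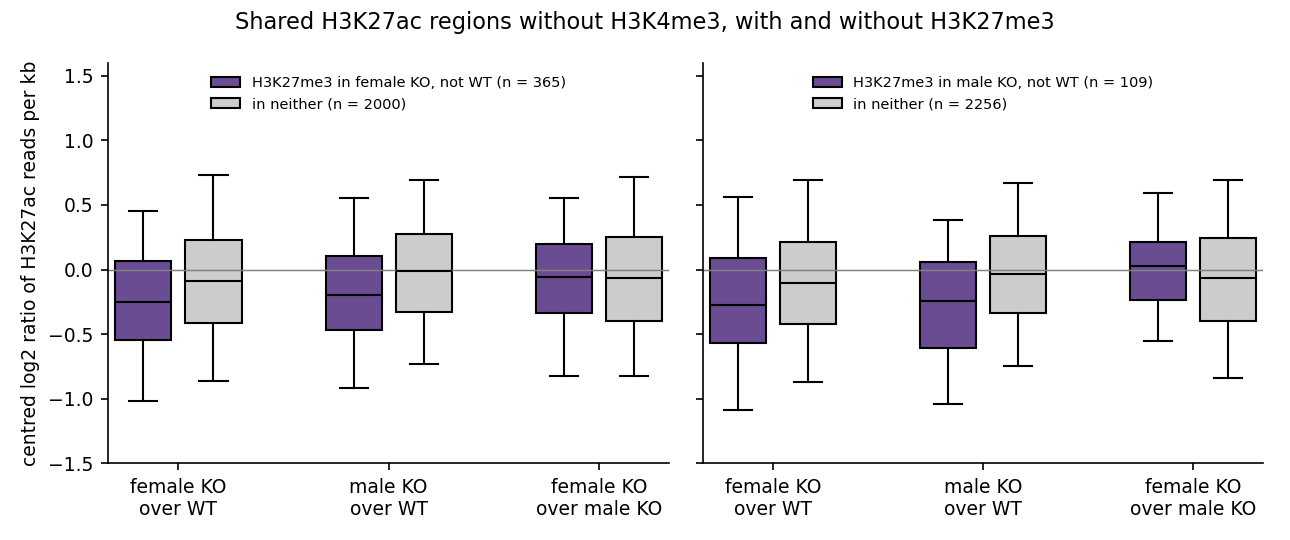
Centred log2 ratio of H3K27ac reads per kb at shared regions without H3K4me3, with H3K27me3 in female KO (left) or male KO (right) and not WT (purple), against regions with H3K27me3 in neither (grey). Boxes show quartiles with the median, whiskers the range from 5 to 95% of regions. Purple boxes lie lower in both ratios over WT, and overlap the grey ones widely in each comparison.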

How the data were processed

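Chromatin immunoprecipitation sequencing of H3K4me3, H3K27me3 and H3K27ac gave 9 region lists, 1 per mark and line. Reads were aligned with Bowtie 1.1.2 and regions called with SICER 1 on mm9, per the submitters' processing notes. The deposited lists give chromosome, start, end and a whole-number count per region, with no header, and that count was taken as the reads in the region. Control library, false discovery rate and total depth are not stated. Counts per region are not normalised.

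H3K27ac lists were merged where regions shared at least 1 bp, on chromosomes 1 to 19, in bins of 200 bp. Reads were summed per merged region and divided by the length the line's own list covered. Log2 ratios were centred on the median over all 11623 shared regions, and 2-fold was the threshold. Intervals are 95%, Wilson for shares and binomial order statistics for medians, and cover counting over regions only, not variation between cultures. With 1 library per group there was no test. Positions are 1-based.

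The members and the rules for named regions were chosen with earlier results of these data known. Named regions were the 5 longest, the 2 highest and 2 lowest ratios of each comparison among regions with at least 300 reads, the 3 densest in WT, the 3 farthest from H3K4me3, the 2 with the longest H3K27me3 in each line, and 1 on either side of the rule. No gene was named and no sequence read, as no mm9 genome or annotation was used. Values were computed in Python 3.11.15 with pandas 2.3.3, numpy 2.4.6 and scipy 1.17.1, and drawn with matplotlib 3.10.9. The member count was checked with bedtools 2.31.1, and the calculations were tested on simulated data. Alternatives covered overlap, margin, count minimum, scaling, centring, H3K27me3 list length and cover, and each line left out.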

Additional observations from a re-analysis of the deposited data

How the results depend on the processing

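No result answering a comparison changed sign under the alternatives run, but intervals came to include 0: male KO over WT at or above the median count (-0.04 to 0.04), and the male KO difference with H3K27me3 at that count (-0.18, -0.38 to 0.02) and with 50% cover (-0.24, -0.53 to 0.06). The set held 1194 regions where each list had to cover at least 50% of the region, 727 with H3K27ac regions at or above the median count, and 3035 to 4635 with 1 line left out. Leaving out a line was added after seeing the data. The median distance to H3K4me3 was 35.2 kb with no H3K4me3 within 5 kb, 34.2 kb with regions closer than 1 kb merged, 27.2 kb at or above the median count, 26.8 kb with H3K4me3 of WT alone, and 25.5 to 27 kb with 1 line left out. H3K27me3 shares in female KO were 20.08% at or above the median count, 6.45% with lists of equal length and 9.238% with 50% cover. In male KO they were 4.355% where each list covers 50%, 3.496% with equal lists, 1.665% with 50% cover, 4.037% on own H3K27ac bins and 4.552 to 6.161% with 1 line left out. In WT they were 0.08323% with 50% cover, 0.541% on own bins and 1.1 to 1.835% with 1 line left out.

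The median ratio of female KO over WT was -0.2373 where each list covers 50%, -0.08103 at or above the median count, -0.2331 per merged kb and -0.9997 scaled by all reads in regions. For male KO over WT these were -0.08262, -0.007073, -0.1073 and -0.3916, and -0.07545 without the female KO lists. For female KO over male KO they were -0.1387 where each list covers 50%, -0.1142 per merged kb, -0.5953 scaled by all reads and -0.0258 without the WT lists. Reads in regions grow with the length a list covers. The density difference from regions with H3K4me3 was, in female KO, -0.7435 where each list covers 50%, -0.3937 at or above the median count, -0.6411 per merged kb and -0.6464 to -0.6422 with 1 line left out. In male KO it was -0.3235 at or above the median count, -0.4709 per merged kb and -0.6483 to -0.5966 with 1 line left out. In WT it was -0.4145 where each list covers 50%, -0.3491 at or above the median count, -0.345 per merged kb and -0.5378 to -0.507 with 1 line left out. The difference between regions with and without H3K27me3 was -0.3153 per merged kb and -0.3068 with 50% cover in female KO, and -0.344 where each list covers 50% and -0.4537 per merged kb in male KO. Apart from what the alternatives themselves construct, the cause was not tested.

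No paired analysis was possible because each group had 1 library. Unknown total depth limits any comparison of absolute levels, and its part in which regions were called was not tested.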

Other observations

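The X chromosome, left out of the set, held 359 H3K27ac regions in all 3 lists of 776 merged, and 69 of these had no H3K4me3. Their H3K27ac medians were 36.7 reads per kb in female KO and 46.1 in male KO, against 22.7 in WT. H3K27me3 overlapped 13 of them in female KO and 0 in male KO and in WT. On the Y chromosome, 10 regions were merged and 0 were in all 3 lists.

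On chromosome 4 the centred log2 ratio of female KO over WT had a median of 0.03 at the 92 shared distal regions, against 0.31 at shared regions with H3K4me3. The female KO over male KO medians there were 0.08 and 0.23, and the male KO over WT medians -0.06 and 0.03.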
